A study of Mus musculus with 2 samples.

Results

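Replication-dependent histone genes were followed in single-cell transcriptomes of mouse lung fibroblastic stroma. A gene was a member when its symbol began with Hist1h, Hist2h, Hist3h or Hist4, or with the newer stems H1f, H2ac, H2bc, H3c or H4c and a number. This took in 65 of the 21014 genes in the tables, and all 65 had a count in both libraries. Of these, 64 encode replication-dependent histones or copies of them, and H1f0, a linker histone made outside S phase, is given by itself. Stromal cells came from C57Bl/6J mice fed a high fat diet (HFD) or normal chow (NC) for 16 weeks. Each diet gave 1 library, made with a 10x Genomics 3′ v3 kit. The number of animals behind a library was not stated in the labels. Because a diet had only 1 library, the differences below have no replicate check and were not tested, and every interval is a 95% interval for counting error alone. Such an interval may be too narrow for members with many counts per positive cell, as described under processing.

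Replication-dependent histones package newly copied DNA, and dividing cells make their mRNA in a burst during S phase. Most of these mRNAs carry no poly(A) tail and end just after a short stem-loop that is bound by the protein SLBP. Some members also give polyadenylated transcripts, which non-dividing and differentiated cells are known to contain. The kit captures RNA through its poly(A) tail, so the values describe the transcripts of these genes that such a method can capture.

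The 3′ ends of the members are shown first because the method reads the ends of transcripts. In the GENCODE M21 transcripts (GRCm38), 42 of 63 protein-coding members had a stem-loop-like inverted repeat in the 3′ untranslated region. The repeat searched was a pair of complementary arms of 6 bases, the first starting with GG, around a loop of 4 bases starting with TT, on the transcript's strand. Of all 21901 protein-coding genes, 94 (0.429%) had such a repeat. In the lines below, capitals mark the arms and lower case marks the loop and the flanks. The first 4 are members that were abundant in the few cycling cells described later, and the others are members with many counts in the rest of the cells.
Hist1h2ap: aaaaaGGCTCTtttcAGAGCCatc
Hist1h2ao: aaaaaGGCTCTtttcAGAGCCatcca
Hist1h2ag: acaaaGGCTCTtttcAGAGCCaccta
Hist1h3c: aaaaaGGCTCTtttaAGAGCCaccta
Hist2h2aa1: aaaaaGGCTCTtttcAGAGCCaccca
Hist3h2a: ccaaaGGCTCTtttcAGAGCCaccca
Hist1h1c: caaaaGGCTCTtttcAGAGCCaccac
Hist1h1e: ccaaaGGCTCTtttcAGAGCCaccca
Hist1h4d: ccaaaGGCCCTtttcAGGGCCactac

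The annotated transcripts differ in how far they run past this element. Those of Hist1h2ap, Hist1h2ag and Hist1h2ao ended 3, 23 and 31 bases after it. Those of Hist1h4d, Hist1h1c, Hist1h1e and Hist3h2a ran on for 770, 840, 1153 and 1643 bases. Those of Hist2h2aa1, with many counts in the rest of the cells, and Hist1h3c ended 35 and 74 bases after it. That of Hist1h2ac, with 21.3% of its NC counts in the cycling cells, ran on for 2010 bases. The distance thus did not separate the members abundant in the cycling cells from the others. The annotated transcript of Hist1h2bc has 2 exons and a 3′ untranslated region of 742 bases with no such repeat. Members lie mostly on chromosome 13 (51 genes), with 10 on chromosome 3 and the others on chromosomes 11, 15 and 6.

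Near-identical members could not be told apart, and this shapes every sum below. Pairs of members whose counts were equal in at least 50% of the cells holding either one joined 23 genes into 8 groups. This left 49 units among the 64 replication-dependent members. Hist2h2aa1 and Hist2h2aa2, a pair of H2A copies, share an identical stretch of 528 bases and had 4157 and 4170 counts in HFD, and their counts were equal in 99.3% of the cells holding either one. The same reads thus appear in both genes, so sums are also given with each group counted once. The last 50 coding bases of the H4 copies below show how little separates them, with bases that differ from Hist1h4b in capitals.
Hist1h4b: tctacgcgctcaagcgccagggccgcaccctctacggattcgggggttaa
Hist1h4j: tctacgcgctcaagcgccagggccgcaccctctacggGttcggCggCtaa
Hist1h4k: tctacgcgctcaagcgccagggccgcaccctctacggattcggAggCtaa
Hist1h4a: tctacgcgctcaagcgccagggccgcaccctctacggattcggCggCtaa
Hist1h4c: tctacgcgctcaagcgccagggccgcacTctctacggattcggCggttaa
Hist1h4d: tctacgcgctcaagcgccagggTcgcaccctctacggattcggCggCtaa
Hist2h4: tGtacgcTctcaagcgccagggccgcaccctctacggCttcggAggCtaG

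Hist1h4a, Hist1h4b, Hist1h4j and Hist1h4k formed 1 of the 8 groups. Hist1h2ag, Hist1h2ao and Hist1h2ap formed another. Values of these genes are uncertain as single genes. The annotated Hist1h2al, a processed pseudogene, shares an identical run of 123 bases with Hist2h2aa1, and in cells thinned to 5000 counts it was found together with Hist2h2aa1 in 245 HFD cells, where 30.6 would follow from the 2 genes' own frequencies. In NC these numbers were 279 and 34.2. Hist1h2al was in none of the 8 groups, so sums with each group counted once still hold its counts.

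The cells described are those with 500 or more genes and a mitochondrial share of no more than 10%, which left 6089 in HFD and 8140 in NC. Median depth was 10045 counts per HFD cell and 7524 per NC cell. Members held 34512 counts in HFD (0.0486% of all counts) and 31202 in NC (0.0446%). No doublet was removed, and 17 cell barcodes occur in both libraries. Cell classes are the 5 of the deposited annotation, namely Asc1, Gas6 and Pi16 fibroblasts, myofibroblasts and a class labelled pericytes. No kept cell (0 of 6089 and 0 of 8140) had a count of Pecam1, Epcam or Ptprc, markers of endothelium, epithelium and leukocytes. Epithelial Sftpc was also at 0. Other markers had counts: immune Lyz2 in 118 HFD and 102 NC cells and Plac8 in 176 and 489. Epithelial Krt18 was found in 25 and 14 cells and endothelial Kdr in 10 and 17. The zeros alone thus do not show that no cell of another lineage is present. The class labelled pericytes also carries smooth muscle genes: Myh11, a smooth muscle myosin, stood at 2878 CPM in HFD and 2369 in NC there and at 12.1 and 6.90 CPM in Asc1 fibroblasts (CPM is the number of counts per 1000000 counts of those cells).

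The first question was how the histone genes as a whole stood on each diet. In the pooled fibroblast classes (Asc1, Gas6, Pi16 and myofibroblasts) the members summed to 485 CPM in HFD and 428 in NC, a ratio of 1.13 (1.09 to 1.17). In the same cells the nuclear RNA Malat1 had a ratio of 1.17 and the stress gene Fos one of 1.21. The other nuclear RNAs compared (Neat1, Meg3, Kcnq1ot1 and Snhg11) had ratios from 0.701 to 0.850. Stress genes lay on both sides of 1, with Fosb at 0.852. The part of such genes in the histone ratio was not tested. In Asc1 fibroblasts the sums were 541 and 475 CPM, a ratio of 1.14 (1.08 to 1.20). In Gas6 fibroblasts they were 443 and 402 CPM, 1.102 (1.04 to 1.17). In these classes the HFD library stood higher by a small margin. Pi16 fibroblasts had 397 and 344 CPM, a ratio of 1.15 (1.04 to 1.28). Myofibroblasts had 508 and 524 CPM, a ratio of 0.971 with an interval from 0.844 to 1.12. With each read-sharing group counted once, pooled fibroblasts stood at 397 and 351 CPM, again a ratio of 1.13. Counted so, the ratio was 1.01 in myofibroblasts (0.866 to 1.18) and 1.12 in Pi16 fibroblasts (0.9987 to 1.252).

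The class labelled pericytes went the other way. Its members summed to 491 CPM in HFD and 711 in NC, a ratio of 0.690 (0.631 to 0.754). Of the 3137 NC counts in this class, 788 (25.1%) were in 1 cell, which also held all 5 listed cycling markers. Without that cell the NC sum was 536 CPM and the ratio 0.916 (0.830 to 1.01). The interval of the sum thus held 1 without that cell. Of the cell's counts only 1 was of Hist1h2bc, the H2B gene that is lower in HFD in this class (given below). The class held 596 HFD and 250 NC cells. H1f0, the replication-independent linker histone, stood at 27.7 CPM in HFD and 25.0 in NC in pooled fibroblasts, a ratio of 1.11 (0.955 to 1.28).

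Between the 5 histone types, diet ratios differed. H4 members, which encode a core histone of the nucleosome, summed to 116 CPM in HFD and 80.7 in NC in pooled fibroblasts, a ratio of 1.43 (1.33 to 1.55). The H4 ratio was above 1 with an interval clear of 1 in each fibroblast class: 1.28 (1.14 to 1.43) in Asc1, 1.59 (1.38 to 1.82) in Gas6, 1.43 (1.15 to 1.78) in Pi16 and 1.38 (1.04 to 1.83) in myofibroblasts. In the class labelled pericytes it was 1.13 (0.891 to 1.45). Counting read-sharing copies once left 96.5 and 68.8 CPM in pooled fibroblasts, a ratio of 1.40. H4 thus stood higher in the HFD library in every fibroblast class, with or without the repeated copies. As a mean of per-cell CPM the H4 log2 ratio was 0.40, against 0.52 for the summed counts.

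**Figure D1:**
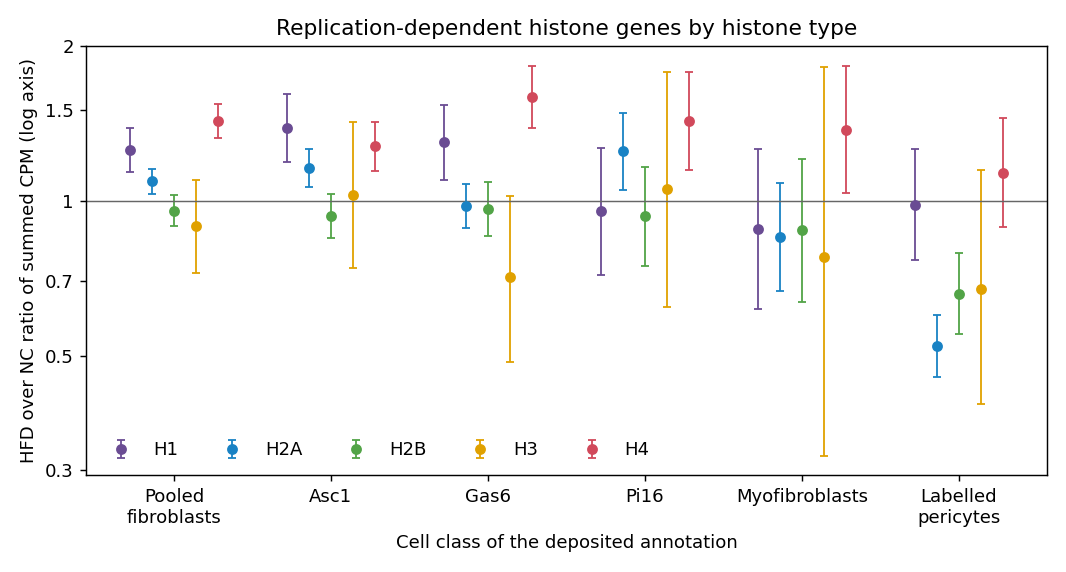
HFD over NC ratio of summed CPM (log axis) for the replication-dependent members of each histone type, in pooled fibroblasts and in each class of the deposited annotation. Points are the ratio of 1 library to the other and bars the exact 95% counting interval; H4 lies above 1 in the 4 fibroblast classes, and H2A is at 0.523 in the class labelled pericytes (0.626 with copies counted once), where 1 NC cell holds 131 counts each of Hist1h2ao and Hist1h2ap.

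H1 linker histones, which bind the DNA between nucleosomes, summed to 65.8 CPM in HFD and 52.4 in NC, a ratio of 1.26 (1.14 to 1.38). The class values were 69.8 and 50.3 CPM in Asc1 fibroblasts (1.39, 1.19 to 1.61) and 64.5 and 49.7 in Gas6 fibroblasts (1.30, 1.101 to 1.53). Pi16 fibroblasts, at 50.4 and 52.7 CPM, and myofibroblasts, at 79.1 and 89.5 CPM, had intervals that held 1. H1 was thus above 1 in the 2 fibroblast classes with most cells and not separable from 1 in the others. Among core histones, H2A members, with H2B partners in the nucleosome, stood at 177 and 163 CPM (1.09, 1.03 to 1.16). H2B members at 113 and 118 CPM (0.958, 0.893 to 1.03), and H3 members stood at 13.0 and 14.5 CPM (0.895, 0.726 to 1.0997).

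Of the 64 members, 28 had at least 50 effective counts over both libraries in pooled fibroblasts or in a class and are named here. The other 36 lay between 0.0704 and 2.46 CPM. Most counts came from few genes: the 8 with the highest CPM held 72.7% of the members' counts in HFD and 71.9% in NC. The kit counts transcript ends, and these values were not divided by length, so no order of abundance between genes is read from them.

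Among the H1 genes, Hist1h1c (ENSMUSG00000036181) stood at 37.0 CPM in HFD and 29.9 in NC in pooled fibroblasts, a ratio of 1.24 (1.09 to 1.41). It was at 39.2 and 28.5 CPM in Asc1, 39.6 and 31.9 in Gas6, 27.4 and 23.8 in Pi16 and 29.0 and 40.7 in myofibroblasts, and at 49.5 and 50.1 in the class labelled pericytes. Hist1h1e (ENSMUSG00000051627) stood at 27.6 and 21.4 CPM, a ratio of 1.29 (1.11 to 1.51). Both linker genes were above 1 in Asc1 fibroblasts, with 1.38 (1.13 to 1.69) for Hist1h1c and 1.40 (1.103 to 1.77) for Hist1h1e. Hist1h1e overlaps Hist1h2be on the same strand in the annotation, so reads of the pair may be shared.

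Among the H2A genes, Hist2h2aa1 (ENSMUSG00000064220) and its copy Hist2h2aa2 (ENSMUSG00000063954) gave nearly the same values. Hist2h2aa2 stood at 58.9 CPM in HFD and 51.3 in NC in pooled fibroblasts (1.15, 1.04 to 1.27). It was at 65.9 and 50.6 CPM in Asc1 fibroblasts (1.30, 1.12 to 1.52) and at 55.7 and 56.0 in Gas6 fibroblasts (0.995, 0.839 to 1.18). In Pi16 fibroblasts it was at 47.4 and 38.7 CPM (1.23, 0.899 to 1.67). The Hist2h2aa2 interval was thus clear of 1 in Asc1 fibroblasts and held 1 in Gas6 and Pi16 fibroblasts. The H2A sum was clear of 1 in Asc1 (1.16, 1.07 to 1.26) and in Pi16, at 149 and 119 CPM (1.2504, 1.05 to 1.48). Its interval held 1 in Gas6 fibroblasts (0.979, 0.887 to 1.08) and myofibroblasts (0.852, 0.668 to 1.08). Whether the classes differ was not tested. Hist3h2a (ENSMUSG00000078851) stood at 23.7 and 20.1 CPM in pooled fibroblasts (1.18, 1.01 to 1.39). The pseudogene Hist1h2al (ENSMUSG00000091383) stood at 15.0 and 13.8 CPM (1.09, 0.888 to 1.33), and its reads may be those of the Hist2h2aa pair. Hist1h2ag, Hist1h2ao and Hist1h2ap were lower in HFD, with 1.59 and 3.16 CPM for Hist1h2ag (0.504, 0.281 to 0.867) and 2.47 and 4.12 CPM for each of the other two (0.601, 0.376 to 0.938).

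Hist1h2bc (ENSMUSG00000018102), an H2B gene, held 19.7% of all member counts in HFD and 23.2% in NC. It stood at 95.03 and 101 CPM in pooled fibroblasts, a ratio of 0.942 (0.872 to 1.02). It was at 112 and 121 CPM in Asc1, 90.2 and 96.3 in Gas6, 58.4 and 68.0 in Pi16 and 80.8 and 82.0 in myofibroblasts, and at 99.1 and 145 in the class labelled pericytes (0.682, 0.559 to 0.834). In each class its HFD value was at or below the NC value, and among fibroblasts no interval excluded 1. H3 had only Hist1h3e and Hist1h3f above the minimum. Their ratios of 0.854 (0.583 to 1.24) and 0.987 (0.575 to 1.67) had wide intervals.

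Among the H4 genes, Hist1h4d (ENSMUSG00000061482) stood at 37.4 CPM in HFD and 26.9 in NC in pooled fibroblasts, a ratio of 1.39 (1.22 to 1.59). It was at 35.0 and 28.8 CPM in Asc1, 37.3 and 23.2 in Gas6, 35.0 and 25.4 in Pi16 and 61.9 and 46.1 in myofibroblasts. In the class labelled pericytes it was at 21.7 and 28.3 CPM. Its HFD value was thus the higher one in all 4 fibroblast classes. Hist1h4c, at 12.7 and 7.71 CPM, had a ratio of 1.65 (1.29 to 2.11), and Hist1h4h, at 14.5 and 10.2 CPM, one of 1.42 (1.14 to 1.77). Hist2h4, at 5.14 and 2.79 CPM, had the highest ratio of the named members, 1.84 (1.23 to 2.76). Hist1h4i was the only named H4 gene below 1, at 4.03 and 4.58 CPM (0.881, 0.60 to 1.28).

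**Figure D2:**
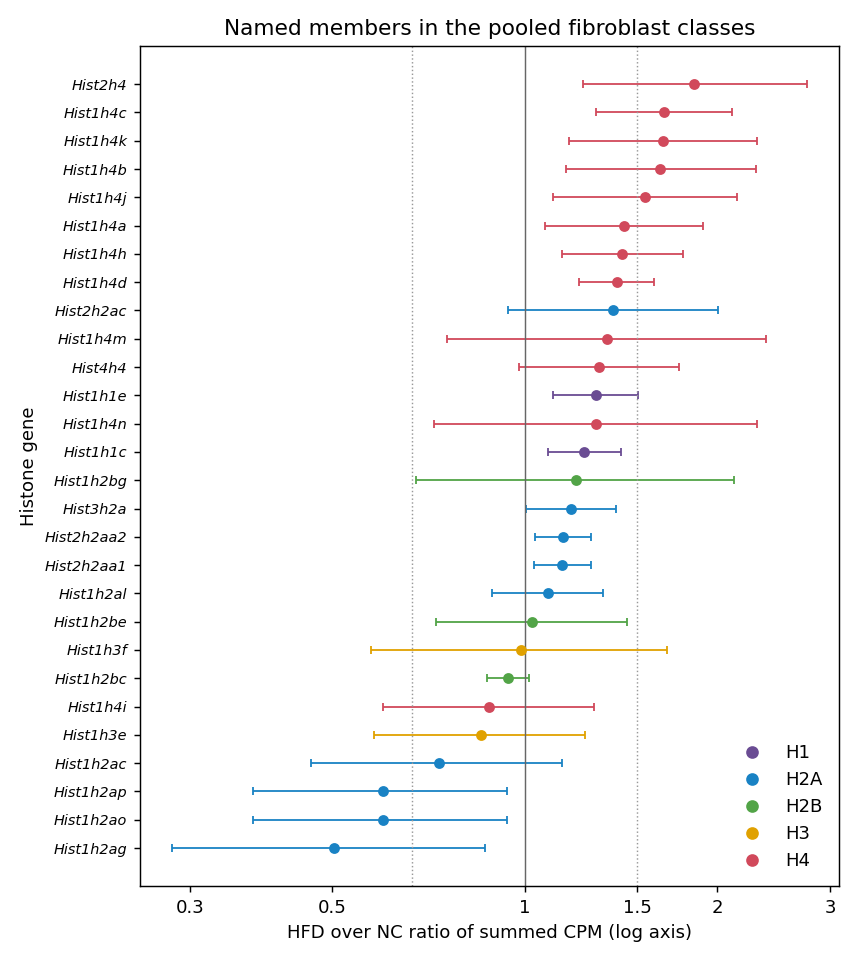
HFD over NC ratio of summed CPM (log axis) for the 28 named members in pooled fibroblasts, coloured by histone type, with exact 95% counting intervals; dotted lines mark 1.5-fold in each direction. H4 genes fill the upper end and the read-sharing genes Hist1h2ag, Hist1h2ao and Hist1h2ap the lower end.

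A ratio of at least 1.5 among genes with at least 50 effective counts was called by size. In pooled fibroblasts 5 of the 28 tested members were higher in HFD, against 5.45% of all genes tested, and 3 were lower, against 4.75%. The higher ones were Hist2h4, Hist1h4c and the read-sharing Hist1h4b, Hist1h4j and Hist1h4k, and the lower ones were Hist1h2ag, Hist1h2ao and Hist1h2ap. The called genes lie in 3 units on the higher side and 1 on the lower side. Hist1h4a, of the same read-sharing group as Hist1h4b, Hist1h4j and Hist1h4k, was under the limit at 1.43 (1.08 to 1.90). No ratio was computed for a whole unit, so units were not called. The median log2 ratio of the members was 0.29, against 0.02 over all 13422 genes, with 20 members above a ratio of 1 and 8 below. These numbers take read-sharing copies as separate members. The share of all genes above a ratio of 1 was not counted, so the 20 and 8 have no background. As a mean of per-cell CPM, only Hist2h4 stayed higher by size. In single classes, 3 of 20 members in Asc1 fibroblasts (background 4.88% higher, 5.46% lower, 10.3% either way) and 3 of 11 in Gas6 fibroblasts (6.08% and 5.91%) were higher and 0 were lower. In Pi16 fibroblasts 0 of 7 were called in either direction (5.7% and 5.88%), as were 0 of 6 in myofibroblasts (7.62% and 7.94%). In the class labelled pericytes 0 of 11 were higher (11.4%) and 2 were lower (6.77%; 18.2% either way). Over all kept cells, the class labelled pericytes included, 5 of 30 members were higher (7.58%) and 5 were lower (5.39%).

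The share of cells with a histone count was compared after each cell had been thinned to 2000 counts, since the libraries differ in depth. Pooled fibroblasts stood at 37.4% in HFD, with an interval of 36.1 to 38.7%, and at 35.5% in NC, with one of 34.4 to 36.5%. Unthinned, it was 53.6% and 51.2%. The class labelled pericytes had the highest share, 48.2% (44.1 to 52.3%) and 52.4% (46.0 to 58.7%), and Pi16 fibroblasts the lowest, 32.2% and 30.9%. Asc1 fibroblasts stood at 38.2% (36.5 to 39.9%) and 34.8% (33.3 to 36.3%), and Gas6 fibroblasts at 40.2% in each library. Most cells with a histone count held few members: outside the high cells defined next, a positive cell had a median of 2 members in HFD and 1 in NC. At 5000 counts the Asc1 shares were 49.7% and 50.5%, so the Asc1 gap at 2000 counts did not appear there. Gas6 fibroblasts, level at 2000 counts, stood at 58.7% (55.7 to 61.7%) and 53.9% (51.7 to 56.1%) at 5000.

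High cells were those whose histone sum reached the 95th percentile over all kept cells of both libraries, 1950 CPM. This is a range of a score and not a cell type. Of the kept cells, 330 in HFD and 382 in NC were high, and 141 and 162 lay within 10% of the limit. Among pooled fibroblasts, the high share was 5.70% in HFD, with an interval of 5.0997 to 6.34%, and 4.68% in NC, with one of 4.22 to 5.17%. The share was 7.05% and 5.88% in Asc1 fibroblasts, 2.37% and 2.05% in Gas6, 4.52% and 3.11% in Pi16, 6.47% and 8.25% in myofibroblasts and 2.85% and 5.20% in the class labelled pericytes. Gas6 fibroblasts were thus the class with the lowest share of high cells, although their share of positive cells was above that of Asc1 fibroblasts. Depth differed between these classes, and its part in the shares was not tested: median depth in HFD and NC was 16128 and 12379 counts in Gas6 fibroblasts, 10302 and 7487 in Pi16, 8473 and 6340 in Asc1, 6617 and 4816 in myofibroblasts and 19715 and 15460 in the class labelled pericytes. With cells thinned to 5000 counts the shares were 3.47% and 2.80% in Gas6 fibroblasts and 8.48% and 7.84% in myofibroblasts. They were 7.24% and 5.90% in Asc1 and 5.68% and 3.34% in Pi16 fibroblasts. In the class labelled pericytes they were 4.39% and 5.06%, closer to each other than without thinning.

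**Figure D3:**
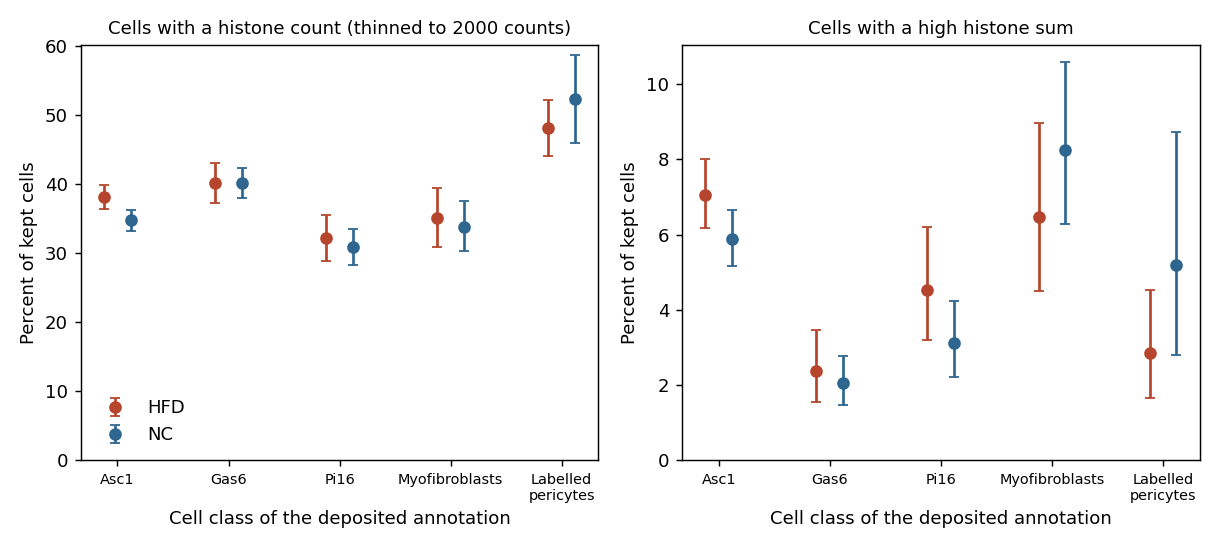
Percent of kept cells with at least 1 histone count after thinning to 2000 counts (left) and with a histone sum at or above 1950 CPM (right), by class and diet, with exact Clopper-Pearson 95% intervals. The class labelled pericytes has the highest positive shares, 48.2 and 52.4%, and Gas6 fibroblasts the lowest high shares, 2.37 and 2.05%.

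A high cell held few histone counts in absolute terms, a median of 22 in HFD and 17 in NC, spread over a median of 4 members or 3 units. High cells were shallower than the others, with median totals of 8052 against 10185 counts in HFD and 5800 against 7614 in NC. Hist2h2aa2 was the leading member of 132 HFD and 131 NC high cells, and Hist1h2bc of 56 and 100. Hist2h2aa2 was found in 55.8% of HFD high cells and 10.7% of other HFD cells, and in 52.6% and 9.63% in NC. These differences follow from the rule that defines a high cell. Because the Hist2h2aa pair puts the same reads in both genes, counting groups once changed the set: 247 of the 330 HFD and 301 of the 382 NC high cells were still high.

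What else the high cells expressed was compared within a class and library against the other cells, leaving the members out of the total. The 3 sets with at least 50 high cells were Asc1 fibroblasts in HFD (218 high cells), Asc1 fibroblasts in NC (235) and myofibroblasts in NC (55). Of 1115 genes with at least 100 effective counts, 3 were at least 1.5-fold higher in high cells by the median and in the same direction in all 3 sets (0.269%), and 2 were lower (0.179%). The higher ones were Fkbp2, Cirbp and Mrps24, at median log2 ratios of 0.72, 0.65 and 0.59. Fkbp2, an immunophilin of the endoplasmic reticulum, stood at 177 CPM in high and 161 in other Asc1 HFD cells, 250 and 152 in Asc1 NC cells and 269 and 163 in NC myofibroblasts. The lower ones were Hhip, an inhibitor of hedgehog signalling, and Iigp1, an interferon-induced GTPase, at log2 ratios of -0.75 and -0.64. Hhip reached the count minimum through NC myofibroblasts, at 3757 CPM in high and 4293 in other cells (log2 ratio -0.19). Its median is the Asc1 HFD value, 28.9 against 48.7 CPM, and in Asc1 NC it stood at 13.6 and 64.6 CPM, so its call rests on sets where it has few counts. Of the next highest, Hp1bp3, Pfdn2, Hes1, Raph1 and Aes lay between 0.54 and 0.46, and of the next lowest, Pde4b, Serpine2, Sgk1, Irf1 and Sfr1 lay between -0.54 and -0.41, all short of the limit. In cells thinned to 5000 counts 0 of 751 genes were called. There the median log2 ratio was 0.28 for Fkbp2, 0.33 for Cirbp, 0.43 for Mrps24 and -0.47 for Iigp1, all under the limit, and -0.63 for Hhip, with 1 direction in 2 of 3 sets. That setting also redefined the high cells and left out shallower ones.

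Cycle genes could be compared in high cells only as sums. No gene of the S phase list (28 genes, such as Pcna and the Mcm helicase subunits) or the G2 and M phase list (16 of 17 in the tables) reached the count minimum in this comparison. The S phase list summed to 165 CPM in high and 158 in other Asc1 HFD cells, 212 and 180 in Asc1 NC cells and 225 and 260 in NC myofibroblasts. The G2 and M phase sums were 90.4 and 87.2 CPM, 114 and 90.3, and 52.4 and 80.8. The signs thus differed between the sets. Of the immediate early and handling stress genes, 13 of 13 were measured and 0 were called in either direction.

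Cells with counts of at least 2 of the 5 listed cycling markers (Mki67, Top2a, Cdk1, Ccnb1 and Birc5) were rare. There were 0 of 6089 in HFD, which allows a share of up to 0.0493% by the limit of 3 counts and 0.0606% by the exact interval. There were 5 of 8140 in NC (0.0614%, 0.0199 to 0.143%). These limits are for cells with detected counts, not for cycling cells, and 25 HFD and 45 NC cells had a count of 1 marker. This rule was chosen after the values were seen. Of the 5 cells, 3 belonged to the class labelled pericytes, 1 to Pi16 fibroblasts and 1 to Gas6 fibroblasts. They held 788, 131, 25, 23 and 1 histone counts. The cells with 788 and 131 counts ranked first and second among all NC cells by histone counts and detected 40 and 23 members.

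The 5 cells differed in which members led. Hist1h2ao and Hist1h2ap led the cells with 788, 131 and 23 counts. The cell with 25 counts was led by Hist1h1e and Hist1h4d, with 6 counts each, and the single count of the last cell was of Hist3h2a. In the cell with 788 counts, Hist1h2ao and Hist1h2ap had 131 counts each and Hist1h2ag 94, while Hist1h2bc had 1 and Hist2h2aa1 had 0. Hist2h2aa1, Hist2h2aa2 and Hist1h2al had 0 counts over all 5 cells, against 3613, 3616 and 965 in the NC library. The 5 cells held 0.209% of all NC counts but 35.1% of those of Hist1h2ap, 34.6% of those of Hist1h2ag, 36.1% of those of Hist1h3c and 78.9% of the 19 counts of Hist1h1b. Of the 60 members with at least 20 NC counts, 14 had at least 20% of them in these cells, against 0.332% of all 18364 genes with as many counts, and 20 members had none there. With read-sharing genes counted once, the 14 members come to 6 units, among them Hist1h2ac, Hist1h3c and the H2B gene Hist1h2bn. Most of this weight lies in the cell with 788 counts, which alone held 30.05% of Hist1h2ap counts. The HFD cell with most histone counts was unlike it: an Asc1 fibroblast with 134 counts, 52 each from Hist2h2aa1 and Hist2h2aa2, no Hist1h2ap count and none of the 5 markers.

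**Figure D4:**
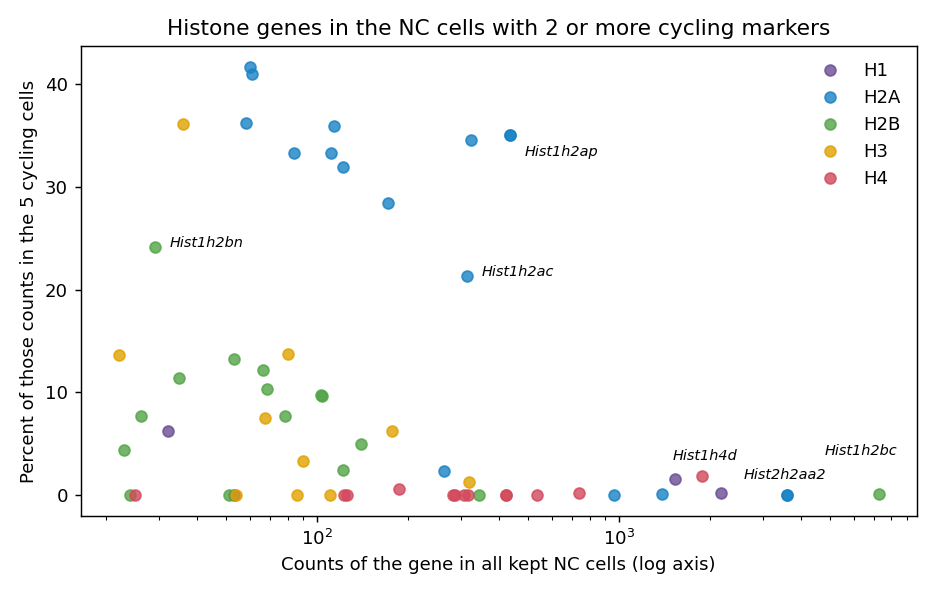
Each point is 1 of the 60 members with at least 20 counts in NC, by its NC counts (log axis) and the percent of them found in the 5 NC cells with 2 or more cycling markers, coloured by histone type. The points above 20% are mostly H2A genes, such as Hist1h2ap at 35.1%, and the genes with most counts, such as Hist1h2bc and Hist2h2aa2, lie at or near 0.

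Genes that work with the histones were taken from fixed lists and compared between diets in pooled fibroblasts by the same size rule and against the same background shares. Of 16 measured S phase genes, 0 were higher and 1 was lower, Fen1, a flap endonuclease, at 1.96 and 3.10 CPM (0.631, 0.369 to 1.05). Of 3 measured G2 and M phase genes, 0 were called. Of 15 measured genes of histone transcript synthesis and processing, 0 were called. Slbp, which binds the stem-loop, stood at 37.2 and 45.6 CPM (0.817, 0.725 to 0.920), and the exonuclease Xrn1 at 63.5 and 50.6 CPM (1.26, 1.14 to 1.39). Lsm11, a U7 snRNP protein, and Cstf2, a polyadenylation factor, had ratios of 1.36 (0.790 to 2.36) and 1.32 (0.968 to 1.81). Of 14 measured chaperones 0 were called. Nasp, which carries H3 and H4, stood at 36.8 and 54.8 CPM (0.673, 0.599 to 0.755), and Nap1l1, a chaperone of H2A and H2B, at 149 and 118 CPM (1.26, 1.18 to 1.34). The replication-independent variants gave 1 higher and 0 lower of 11: the centromeric Cenpa, at 13.2 and 8.35 CPM (1.58, 1.2499 to 2.003). H2az1, an H2A.Z gene, stood at 186 and 225 CPM (0.826, 0.783 to 0.871). Of 12 measured genes of quiescence and cell cycle exit, 1 was higher, the CDK inhibitor Cdkn2c at 147 and 86.5 CPM (1.70, 1.59 to 1.83), and 2 were lower, the CDK inhibitor Cdkn1a at 203 and 334 CPM (0.609, 0.580 to 0.639) and the cyclin Ccnd1 at 4.91 and 7.42 CPM (0.663, 0.477 to 0.912). Genes of handling stress and nuclear retained RNA differed in both directions, some by sizes like that of the histone sum. Of 13 measured immediate early and handling stress genes 0 were called, with Atf3 at 2477 and 1981 CPM (1.2506, 1.23 to 1.27), Fos at 6550.2 and 5409 CPM (1.21, 1.199 to 1.22), Fosb at a ratio of 0.852 (0.841 to 0.863) and Hspa1b at 0.806 (0.775 to 0.838). Of 5 nuclear retained RNAs 0 were called, and their sum was 40691 CPM in HFD and 34993 in NC. Most of that sum was Malat1, at 39998 and 34156 CPM (1.17, 1.167 to 1.176), while Meg3, Snhg11, Kcnq1ot1 and Neat1 had ratios from 0.701 to 0.850.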

How the data were processed

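The submitters' processing notes name STAR and the mm39 build; the counting step is not given in the sources used here. The deposited tables hold log2 values of counts per 1000000 plus 1 for each cell, as found from the values. Per the file headers, each cell also has a deposited estimated count in total, fractional in 7.24% (HFD) and 5.57% (NC) of cells, a count of genes, and mitochondrial and ribosomal shares in percent. Each log2 value was turned back to a linear value and scaled by its cell total to recover counts. Within 0.01, 98.8% of HFD and 98.96% of NC nonzero values were whole, and all were rounded. A name table gave symbols for 20180 of 21014 identifiers.

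Counts per positive cell were high for rare genes, so intervals rest on effective counts: HFD counts were divided by 4.85 and NC counts by 3.98, the median, over genes seen in 0.1 to 1% of cells, of the sum of squared counts over the sum of counts. The same divisors served every gene. Mean counts per positive cell were 5.72 in HFD and 4.71 in NC for Hist1h2bc, and 5.74 and 4.60 for Hist1h1e. For Hist2h2aa2 they were 5.20 and 3.81, above the divisor in HFD only. Intervals of such members, and of sums that hold them, may thus be too narrow even for counting error. Counts were summed per library and class, with exact conditional Poisson intervals of ratios and Clopper-Pearson intervals of shares. Thinning to 2000 counts left out 3 HFD and 25 NC cells, and to 5000 counts 596 and 1777. No doublet caller was run. Transcripts came from GENCODE M21 (GRCm38), another build than the files use, so no coordinates are given. Calculations used Python 3.11.15 with scipy 1.17.1, and TMM factors came from edgeR 4.0.16. Scripts were tested on simulated data. The members, lists and rules were chosen with earlier results of these data known. The rule named every member with at least 50 effective counts, gave the 8 with the highest CPM in full, and named the 8 highest and 8 lowest other genes of high cells and up to 4 genes per list, those farthest from a ratio of 1. One gene that this rule names is not reported here.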

Additional observations from a re-analysis of the deposited data

Results flagged for a closer look

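The histone sum moved in opposite directions between classes. Its HFD over NC ratio was 0.690 in the class labelled pericytes and above 1 in Asc1, Gas6 and Pi16 fibroblasts, with counting intervals clear of 1 in each. With read-sharing copies counted once, the Pi16 interval was 0.9987 to 1.252 and held 1. The difference between classes was not tested, since each diet has 1 library. Without the NC cell that held 788 histone counts the ratio of the class labelled pericytes was 0.916, with an interval from 0.830 to 1.01.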

How the results depend on the processing

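Each value was recomputed under other settings, 4 of them chosen after seeing the data (copies counted once, without the NC cell with most histone counts, without cells with 2 or more cycling markers, and without the deepest 5% of cells). Of 197 such values, 179 stayed within the counting interval or within 1.5 times the count, 18 moved and 0 reversed. A ratio could be called reversed only where its main interval excluded 1, and a count could not be. Signs did change where the interval held 1. In cells of 1000 or more genes and no more than 5% mitochondrial share, the log2 ratio of the myofibroblast sum went from -0.04 to 0.14. That of Hist1h2al in pooled fibroblasts went from 0.12 to -0.06 there. The log2 ratio of the histone sum in pooled fibroblasts was 0.18, and became 0.25 without Hist1h2bc, 0.11 with classes weighted equally and 0.12 over all kept cells. That of the class labelled pericytes was -0.54, and became -1.11 in cells of 1000 or more genes and no more than 5% mitochondrial share, -0.10 without the 10 cells of each library with most histone counts, -0.13 without the NC cell with most, -0.055 without cycling cells, -0.15 without the deepest cells and -0.40 with copies counted once. The log2 ratio of the positive share was 0.08, and 0.15 without Hist1h2bc. That of the high share was 0.285, and 0.52 at the 99th percentile. Members called by size numbered 8, and 4 with means of per-cell CPM, 17 at a lower ratio limit and 0 at a ratio of 2. Other genes called in high cells numbered 5, and 2 at the 90th percentile and 0 in cells thinned to 5000 counts. The 2 at the 90th percentile, both lower, were not among the 5. There the 5 had median log2 ratios from -0.28 (Iigp1) to 0.23 (Mrps24), all short of the limit. Where no construction shows it, the cause was not tested. No paired analysis was possible because each diet has 1 library. Depth limits the members: 36 of 64 were under the count minimum, and 1 library per diet leaves the spread between animals unknown.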
